A study of Mus musculus with 12 samples.

Results

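Light zone cells in G2/M phase are germinal center B cells that the authors annotated as light zone (LZ) and called G2M, the phase that joins the gap before division to mitosis itself. With the authors' clusters 4, 5 and 7 left out, 198 of the 6000 deposited cells met that rule, 39, 78 and 81 from the 3 mice. The mice had received the antigen NP-KLH in Sigma Adjuvant System, and their draining lymph nodes were taken on day 16 of the primary response and 5 days after a gavage of tamoxifen. Live cells without IgD that carried the eYFP reporter were sorted, and droplet-based 5' single-cell RNA sequencing gave unique molecular identifier (UMI) counts per gene. All 3 mice had the same treatment and no unimmunised group was analysed here, and the sources used here do not give the allele that drives the reporter or the sex and age of the animals. The cells were compared with 1168 LZ cells in G1, 707 LZ cells in S phase and 872 dark zone (DZ) cells in G2M of the same mice, with the cluster rule applied to each group.

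In a germinal center, B cells alternate between a dark zone, where they divide and mutate their antibody genes, and a light zone, where they capture antigen from follicular dendritic cells and present it to T follicular helper cells. Signals through the B cell receptor and CD40 act on NF-kB and induce Myc in some light zone cells, which then enter the cell cycle and move to the dark zone for further divisions. Entry into mitosis needs cyclin B bound to the kinase Cdk1, and exit needs the anaphase-promoting complex with its activator Cdc20.

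Promoters of a few of these genes are shown first, as examples of promoters that hold short patterns known from cell cycle and NF-kB target genes. Each line holds the 150 bases before the transcription start (RefSeq, build GRCm38.p6), 5′ to 3′ on the strand of the gene. Capitals mark 3 patterns searched on both strands. They are TTTGAA, a form of the cell cycle homology region (CHR), CCAAT, and a form of the NF-kB site that reads GGG, any 2 bases, then TTTCC. They do not overlap one another here. Ccnb2 (cyclin B2) lies at chr9:70421555-70421704 on the minus strand, Cdk1 at chr10:69352913-69353062 on the minus strand, Cdc20 at chr4:118437344-118437493 on the minus strand and Nfkbia, which encodes the NF-kB inhibitor IkB-alpha, at chr12:55492648-55492797 on the minus strand. These 4 were chosen after their matches were seen.
Ccnb2: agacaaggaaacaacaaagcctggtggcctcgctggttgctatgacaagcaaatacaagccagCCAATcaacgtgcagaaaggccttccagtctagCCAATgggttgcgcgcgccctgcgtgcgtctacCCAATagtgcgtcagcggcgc
Cdk1: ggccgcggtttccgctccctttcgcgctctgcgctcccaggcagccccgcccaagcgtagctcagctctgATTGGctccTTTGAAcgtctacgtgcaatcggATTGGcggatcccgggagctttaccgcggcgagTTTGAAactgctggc
Cdc20: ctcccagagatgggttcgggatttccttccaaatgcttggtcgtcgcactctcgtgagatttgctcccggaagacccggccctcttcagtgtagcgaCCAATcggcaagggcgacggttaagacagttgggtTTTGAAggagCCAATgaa
Nfkbia: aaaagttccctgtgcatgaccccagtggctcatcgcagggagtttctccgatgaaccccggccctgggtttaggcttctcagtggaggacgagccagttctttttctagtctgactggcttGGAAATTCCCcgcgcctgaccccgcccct

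Ccnb2 had CCAAT boxes starting at -87, -54 and -21 from the start site. Its TTTGAA at -167 lies before the stretch printed. Cdk1 had TTTGAA at -71 and -15 and CCAAT, as ATTGG on the opposite strand, at -80 and -48. Over the 250 bases before the start, TTTGAA was found in 20 of the 46 genes of a G2/M list that had a promoter in the RefSeq table (43.5%), against 18.3% of all genes of that table and 12.7% of the tested genes matched to it. CCAAT was found in 76.1% of the G2/M list, 37.5% of all genes and 41.6% of tested genes. The NF-kB pattern was found in 6 of 16 genes of a CD40 and NF-kB list (37.5%), against 1.65% of all genes and 1.82% of tested genes. Not every gene described below held a pattern. The 3 promoters of Nfkbid in the table had no match to any of them, and Plk1 and Aurka had CCAAT but no TTTGAA. These matches describe letters and not bound sites.

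The labels were checked against the markers Cd83, Ccnb2 and Cdk1. Cd83 encodes a surface protein of light zone cells. Of the 198 cells, 72.7% had a UMI of Cd83, 91.4% one of Ccnb2 and 82.8% one of Cdk1. Thinned to 2000 UMIs per cell, which left out 1 shallower cell, these shares were 40.1%, 44.7% and 42.1%. At the same depth Cd83 was seen in 14.7% of DZ G2M cells (42.8% unthinned), Ccnb2 in 8.12% of LZ G1 cells (17.9%) and Cdk1 in 3.98% of LZ G1 cells (8.99%), so each marker stood above the group that should hold less of it. Median depth was 9853 UMIs in LZ G2M cells, 9535.5 in DZ G2M cells, 7870 in LZ S cells and 5354 in LZ G1 cells. The authors called phase and zone from these same counts, so cell cycle genes and zone signature genes describe the labels below and are no independent test of them.

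On the authors' continuous zone score, which runs from light to dark zone, LZ G2M cells lay nearer its dark zone end than other LZ cells did. The median score was 0.456 in LZ G2M, 0.439 in LZ S, 0.408 in LZ G1 and 0.635 in DZ G2M cells. The authors' separate light zone score had medians of 0.0192 in LZ G2M, 0.0453 in LZ S and 0.0816 in LZ G1. Their dark zone score was not higher in LZ G2M, with medians of -0.0180, -0.0172 and -0.00933 in the same order. In DZ cells the light zone score was also lower in G2M (-0.0517) than in G1 (-0.00828). On the continuous score LZ cells reached up to 0.518 and DZ cells down to 0.500, and 0.509, midway between, was taken as the boundary. Within 0.05 of it lay 97 of the 198 LZ G2M cells (49.0%), against 35.2% of LZ S, 23.9% of LZ G1 and 16.7% of DZ G2M cells, and 43 of the 198 lay within 0.02. The 4 comparisons across genes below were also computed without the cells within 0.05, an alternative added after seeing the data. By the authors' clusters, 168 of the cells were in cluster 1, 27 in cluster 3, 2 in cluster 2 and 1 in cluster 0. The cluster rule had left out 45 further LZ cells called G2M, 31 of them in cluster 5.

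Few cells labelled LZ were called G2M. Their share of LZ cells was 7.86%, 11.9% and 8.81% in the 3 mice, 9.51% ± 2.09 (SD, n = 3), and that of DZ cells in G2M was 30.3%, 31.1% and 29.7%, 30.3% ± 0.746. The groups did not overlap and the difference was -20.8 percentage points ± 1.55 in favour of the dark zone, in 3 of 3 mice. The exact two-sided sign-flip permutation test gave p = 0.25, the smallest that 3 pairs allow. Both shares count only cells labelled LZ or DZ. Cells that the authors labelled as moving from light to dark zone (LZtoDZ) enter neither, so the shares rest on that labelling. Phase was also called again after thinning to 2000 UMIs, by scanpy's cell cycle score with the S phase and G2/M lists used here. The shares were then 18.5% and 41.0%. That call kept 193 of the 198 cells in G2M and added 103 LZ G1 and 84 LZ S cells. The level of the share thus rests on how phase was called, while the difference between zones stayed at -22.5 points. The authors' method is not given and phase was not called again at full depth, so the parts of method and depth were not tested.

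**Figure D1:**
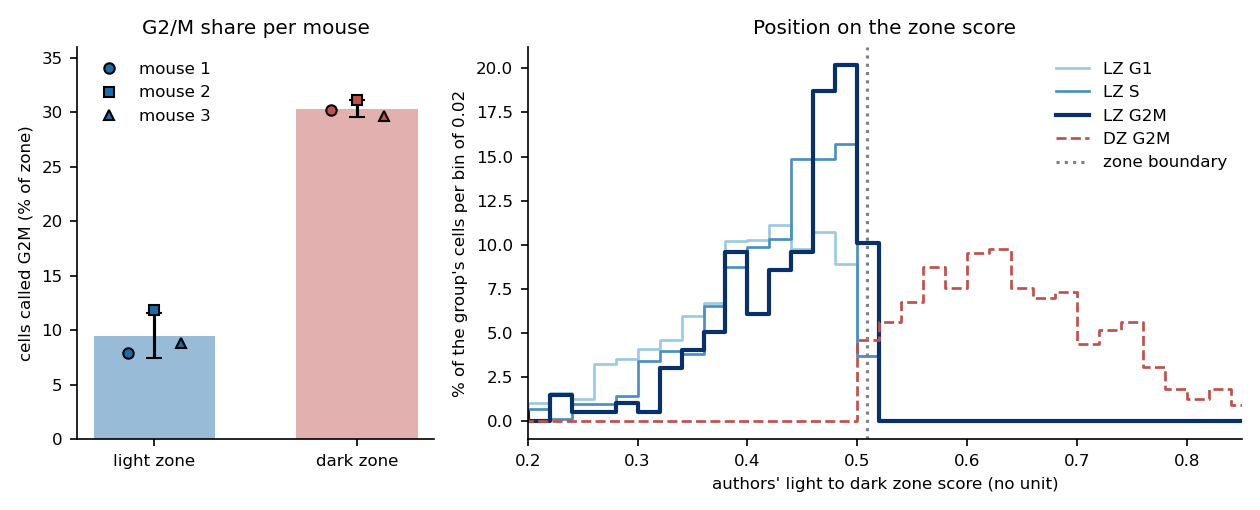
Left, percent of LZ and of DZ cells called G2M in each mouse (symbols), with the mean (bar) and SD (line). Right, the percent of each group's cells per bin of 0.02 of the authors' zone score. The LZ G2M curve is highest in the bins just below the boundary of 0.509, and DZ G2M cells spread above it.

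Raw UMIs were summed per mouse and group, and the sums of all 6 groups of LZ and DZ cells by phase entered 1 edgeR quasi-likelihood fit with mouse as a block. The LZ G2M sums held 388051, 779393 and 862988 UMIs. Correlations between mice were 0.910 to 0.938 in LZ G2M and 0.961 to 0.978 in the other groups, so the LZ G2M sums are the noisiest. Levels are in CPM, each gene's share of the UMIs of a sum after scaling to a common total, and log2 fold changes carry standard errors (SE). A gene was called at a Benjamini-Hochberg adjusted p under 0.05 over 9105 genes tested.

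The first comparison asked how LZ cells in G2M differed from LZ cells in G1. Most antigen presentation and B cell receptor genes took a smaller share of the UMIs in G2M and mitotic genes a larger one. The MHC class II and B cell receptor lists also summed to fewer CPM in G2M than in G1 among DZ cells, as given under the fourth comparison. As shares of the UMIs, the NF-kB targets Nfkbia and Nfkbid and Myc rose while Cd83 and the costimulator Cd86 fell. The CD40 and NF-kB list as a whole did not rise. Over all genes 1376 were higher and 1189 lower, 28.2% in all, 15.1% higher and 13.1% lower.

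Nfkbia stood at 461, 324 and 397 CPM in LZ G2M and at 290, 259 and 266 CPM in LZ G1. The groups did not overlap, and the log2 fold change was 0.52 ± 0.11 (edgeR, adjusted p = 0.00104). Nfkbid, another inhibitor of the IkB family, stood at 82.6, 36.5 and 57.4 CPM against 35.6, 30.3 and 32.1 CPM, a log2 fold change of 0.77 with mouse 2 only slightly above the highest G1 value. Myc, a transcription factor that drives growth and cell cycle entry, stood at 87.6, 45.4 and 97.2 CPM in LZ G2M and at 46.9, 29.7 and 44.6 CPM in LZ G1. It was higher in each mouse, although mouse 2 in G2M fell inside the G1 range, with a log2 fold change of 0.92 ± 0.17 (edgeR, adjusted p = 0.000318). Both are low transcripts, and Myc rested on 154 UMIs in the 198 cells and was seen in 24.2% of them (11.7% at 2000 UMIs), against 11.6% of LZ G1 cells (5.96%) and 8.83% of DZ G2M cells (1.73%). Without the cells near the zone boundary the log2 fold changes were larger, 0.80 for Nfkbia and 1.43 for Myc. With 39 cells drawn per sum, Myc no longer passed, at a log2 fold change of 0.80 (edgeR, adjusted p = 0.182).

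Cd83 stood at 471, 367 and 315 CPM in LZ G2M and at 640, 542 and 584 CPM in LZ G1. All 3 G2M values lay below the G1 values, with a log2 fold change of -0.65 ± 0.09 (edgeR, adjusted p = 9.59e-06). With 39 cells per sum it was -0.55 and missed the threshold (edgeR, adjusted p = 0.063), and without the cells near the zone boundary it was -0.30 (edgeR, adjusted p = 0.0487). The mean of Cd83 UMIs per cell ran the other way. It was 4.82, 3.73 and 3.32 in LZ G2M and 3.48, 3.06 and 3.23 in LZ G1. This mean was higher in each mouse, beside the larger depth of G2M cells. The share of cells with a UMI of Cd83 was lower, at 72.7% in LZ G2M and 83.6% in LZ G1. Thinned to equal depth, as for the markers above, these shares were 40.1% and 58.1%. Cd86, a ligand of CD28 on T cells, fell from 188 ± 17 to 93.7 ± 12 CPM (SD, n = 3), a log2 fold change of -1.02 ± 0.11. Il4i1, an amino acid oxidase, fell by 1.20 and Fcer2a, the IgE receptor CD23, by 1.17 on the log2 scale. Of 36 tested genes of a light zone list, 11 were lower and 3 higher, the 3 being Myc, Nfkbia and Nfkbid, with a median of -0.18 against -0.05 over all genes.

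MHC class II genes, which display peptides to helper T cells, were lower for 11 of 13 members, with a median log2 fold change of -0.52. Cd74, the invariant chain that escorts MHC class II, stood at 22260, 23960 and 21690 CPM in LZ G2M and at 35130, 34030 and 33030 CPM in LZ G1. The groups lay far apart, and the log2 fold change was -0.59 ± 0.03 (edgeR, adjusted p = 5.68e-14). H2-Oa, which restrains peptide loading, fell by 0.83, the protease Ctss by 0.71 and Ciita, the transcriptional activator of the locus, by 0.65. In UMIs per cell the direction differed. Cd74 gave 234 ± 8.94 UMIs per LZ G2M cell and 189 ± 5.29 per LZ G1 cell, and the MHC class II list summed to 389 ± 10.8 and 300.4 ± 8.04 UMIs per cell (SD, n = 3), beside the larger depth of G2M cells. The lower CPM is thus a share of a larger total, and whether single cells hold more or less of these transcripts cannot be told apart from their depth.

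B cell receptor signalling followed the same order, with 17 of 22 members lower and 1 higher (median -0.48). Lat2, an adaptor, fell by 0.92, the kinase Syk by 0.83, Bank1, a scaffold, by 0.86 and Cd79b, a signalling chain of the receptor, by 0.66. The member that rose was Bcl10, which carries the signal to NF-kB, at 0.31. Per cell, Syk gave 1.19 ± 0.0258 UMIs in LZ G2M and 1.12 ± 0.102 in LZ G1. Of the CD40 and NF-kB list, 5 of 20 were lower, among them Icosl, the ligand of ICOS on T cells, at -1.31 and Traf5 at -0.87, and 2 were higher, Nfkbia and Traf2. Its median was -0.16 against -0.05 over all genes, with 13 of 20 below 0. The call of Traf2 was lost without mouse 1, without mouse 2, with 39 cells per sum and without the cells near the zone boundary. The germinal center list had 7 of 12 lower and 1 higher. Bcl6, the repressor that maintains the germinal center state, fell from 76.7 ± 2.6 to 48.0 ± 8.6 CPM, a log2 fold change of -0.72 ± 0.13 that did not pass with 39 cells per sum. The G1 value of Foxp1, a repressor high in resting cells, was 113 ± 3.7 CPM and that in G2M was 59.3 ± 3 CPM.

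Among genes that reached a mean of 50 CPM in either group, outside the S phase and G2/M lists, Mxd4, a partner of Max that opposes Myc, had the largest fall, from 130, 88.2 and 108 CPM in LZ G1 to 17.5, 29.0 and 23.4 CPM in LZ G2M, a log2 fold change of -2.12 ± 0.17. Pxdc1 (-1.93), Cyp4f18 (-1.73), Ncf1, a subunit of the phagocyte oxidase (-1.55), Apoe (-1.50), Ddit4, an inhibitor of mTORC1 (-1.48), Cyth4 (-1.38) and AB124611 (-1.38) followed. Bbc3, which encodes the death-inducing protein PUMA, stood at 3.71 ± 1.3 CPM in LZ G2M, on 7 UMIs, and 15.1 ± 2.7 CPM in LZ G1. Of the apoptosis list 4 of 18 were lower and 1 higher.

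Mitotic genes follow from the phase label and are given as description. All 52 of the G2/M list were higher, with a median of 2.94, as were 25 of 28 genes of mitotic entry and anaphase, 27 of 28 spindle and cytokinesis genes, 15 of 16 histone genes and 35 of 42 S phase genes. Cdk1 stood at 328, 306 and 314 CPM against 17.5, 18.3 and 15.9 CPM in LZ G1. Of genes outside the S and G2/M lists, the largest rises were those of the histone Hist1h2ap (4.46), the centromere gene Cenpp (4.35), the cytokinesis kinase Cit (4.14), Shcbp1 (3.99), the cyclin Ccnf (3.96), Poc1a (3.85), the kinesin Kif22 (3.84) and the kinetochore gene Spc24 (3.80). Of 30 Myc target and ribosome biogenesis genes, 10 were higher and 2 lower, led by Ran, a nuclear transport GTPase that also acts in mitosis, at 1.25. Of 20 oxidative phosphorylation genes, 11 were higher and 1 lower.

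**Figure D2:**
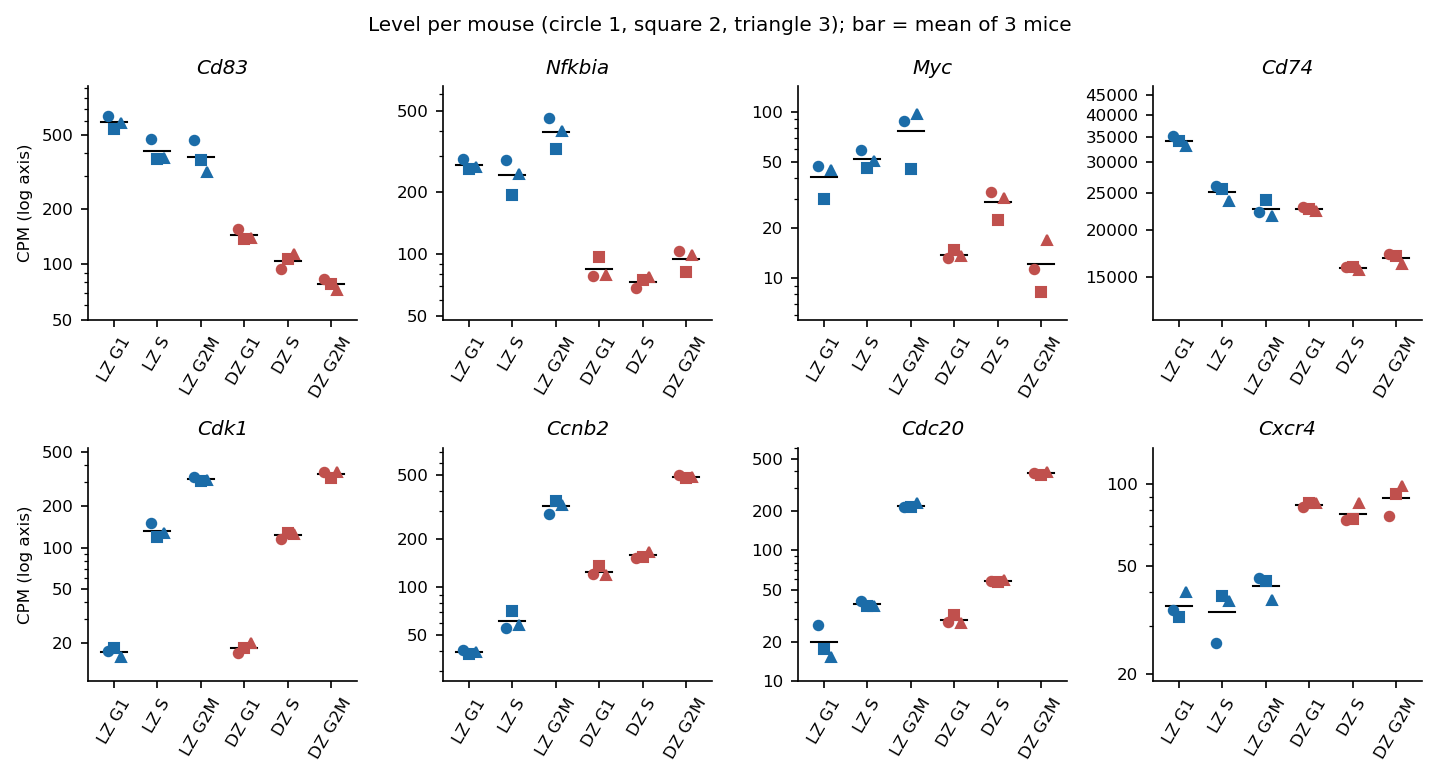
CPM (log axis) of 8 genes in each mouse (symbols) and group, LZ in blue and DZ in red, with the mean of 3 mice as a bar. Nfkbia and Myc are highest in LZ G2M, Cd83 and Cd74 are highest in LZ G1, and Ccnb2 and Cdc20 are highest in DZ G2M.

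The second comparison set LZ G2M cells against LZ cells in S phase, the group nearer to them in depth. The NF-kB targets Nfkbia, Nfkbid and Birc3 were higher in G2M, and most genes of the S phase list were lower. Over all genes 612 were higher and 583 lower, 13.1% in all, 6.72% higher and 6.4% lower.

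Nfkbia stood at 287, 193 and 246 CPM in LZ S, all below the 3 G2M values, with a log2 fold change of 0.70 ± 0.11 (edgeR, adjusted p = 0.000142). Nfkbid was higher by 0.93 ± 0.18 and Birc3, an inhibitor of apoptosis and an NF-kB target, by 0.81 ± 0.14, from 44.3 ± 1.4 to 78.7 ± 9.4 CPM. With 39 cells per sum none of these 3 passed. Nfkbie and Relb, an inhibitor and a subunit of NF-kB, were higher by 0.51 and 0.48. In all, 6 of 20 members of the CD40 and NF-kB list were higher and 2, Icosl and Traf5, lower, with a median of 0.28 against -0.03 over all genes. Myc stood at 58.7, 46.0 and 50.5 CPM in LZ S. It was higher in G2M in 2 of 3 mice, and its call (0.56 ± 0.17, edgeR, adjusted p = 0.0317) was lost without mouse 1, without mouse 3, without the mouse block and with only the 2 groups in the fit. With 39 cells per sum its sign turned, to -0.31 (edgeR, adjusted p = 0.69). Cd83 did not pass (-0.11 ± 0.09, edgeR, adjusted p = 0.508), and Cd86 was lower by 0.46, a call lost without mouse 2, without mouse 3, with 39 cells per sum and without the cells near the zone boundary.

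Of the S phase list 29 of 42 were lower. Ung, a uracil glycosylase of base excision repair, stood at 5.01, 3.78 and 1.17 CPM in LZ G2M and at 79.1, 72.3 and 72.6 CPM in LZ S, the largest difference of that list, on 6 UMIs in LZ G2M, at -4.64 ± 0.31 (edgeR, adjusted p = 3.75e-10). The endonuclease Apex1 was lower by 0.81, whereas Polh, the translesion polymerase of hypermutation, was higher by 1.14. Of the Myc target and ribosome biogenesis list 9 of 30 were lower, among them the spermidine synthase Srm at -0.90 and the mitochondrial enzyme Shmt2 at -0.56, and 2, Ran and Myc, were higher. Ccnd3, the cyclin D of germinal center cells, fell from 441 ± 8 CPM in LZ S to 290 ± 17 CPM in LZ G2M, a log2 fold change of -0.60 ± 0.06. MHC class II genes differed less than against G1, with 2 of 13 lower, Ifi30 and Cd74, and none higher. All 52 genes of the G2/M list were higher, with a median of 1.45. Of that list Ube2c (3.11), Cenpf (2.56) and Cdc20 (2.52) differed most. Other genes higher in G2M included Ccnb1 (2.34), Plk1 (2.46), the spindle genes Aspm (2.23) and Knstrn (2.20), Parpbp (2.22), Cdkn3 (2.14), Tuba1c (2.01) and Racgap1 (1.96). Genes lower in G2M outside the S phase list included Ubtf (-1.50), which acts in ribosomal RNA transcription, Ppat (-1.47), the helicase Mcm3 (-1.23), Cyp4f18 (-1.21), Trmt6 (-1.12), Mxd4 (-1.05), Pycrl (-1.05) and Psen2 (-1.01).

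**Figure D3:**
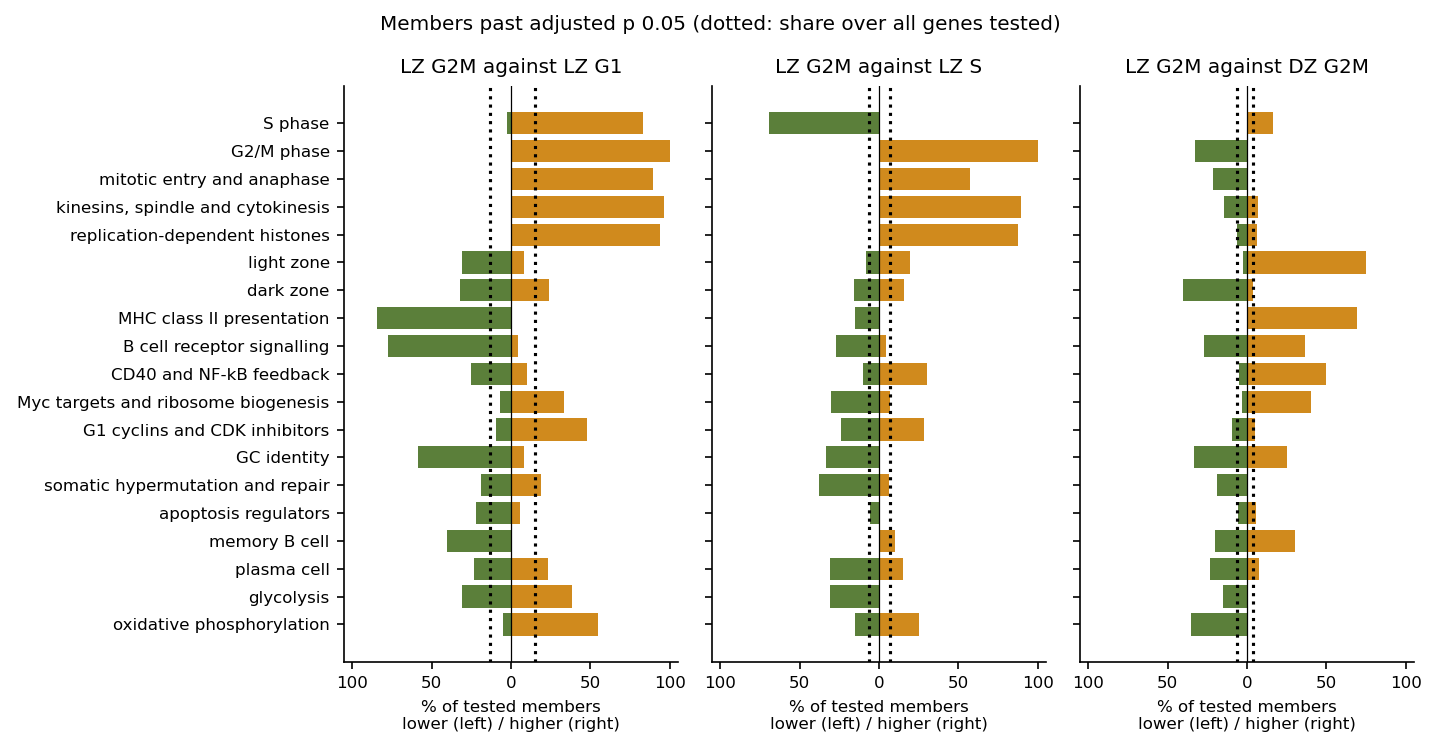
Percent of the tested members of each gene list that were higher (right) or lower (left) in LZ G2M at an adjusted p under 0.05, in 3 comparisons, with the share over all genes tested as dotted lines. The bars of MHC class II and B cell receptor genes point left against LZ G1, and those of light zone, MHC class II and NF-kB genes point right against DZ G2M.

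The third comparison set LZ G2M against DZ G2M cells, 2 groups of the same phase and nearly the same depth. LZ G2M cells had higher levels of Myc, of 10 of 20 CD40 and NF-kB genes and of 9 of 13 MHC class II genes, and lower levels of Rgcc, Cxcr4 and 17 of 52 G2/M genes, among them Cdc20 and Ccnb2. Over all genes 345 were higher and 556 lower, 9.9% in all, 3.79% higher and 6.11% lower. The excess of lower genes depended on the processing. With DESeq2's size factors in place of TMM the split was 399 higher and 456 lower, and with 39 cells per sum it was 96 and 95. With any 1 mouse left out, more genes were still lower than higher. The zone was called from the same counts, so the zone genes below describe that call.

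Of 36 light zone genes 27 were higher and 1, Cd44, lower, with a median of 1.07 against -0.03 over all genes. Nfkbid stood at 82.6, 36.5 and 57.4 CPM in LZ G2M and at 8.08, 6.78 and 9.73 CPM in DZ G2M, a log2 fold change of 2.74 ± 0.20 (edgeR, adjusted p = 5.02e-09). Myc stood at 11.4, 8.25 and 16.9 CPM in DZ G2M, below every LZ G2M value, with a log2 fold change of 2.61 ± 0.20. Il4i1 was 2.49, Cd83 2.27 and Nfkbia 2.04 higher on the log2 scale, and Nfkbia stood at 104, 81.6 and 99.3 CPM in DZ G2M, far below its LZ G2M values. Bcl3, an atypical IkB protein, was higher by 1.80, the immediate early gene Egr1 by 1.70, Slfn2 by 1.56, Birc3 by 1.55 and the NF-kB subunit Nfkb2 by 1.46. Egr1 differed between mice, at 220, 81.9 and 53.9 CPM in LZ G2M and 36.1, 30.6 and 28.9 CPM in DZ G2M. None of these 10 lost its call under any of the 15 alternatives.

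Of the CD40 and NF-kB list 10 of 20 were higher and 1, Traf5, lower. The receptor Cd40 was higher by 1.40 and the subunits Relb, Rel and Rela by 1.28, 0.52 and 0.41. Of 13 MHC class II genes 9 were higher and none lower, with Ifi30, a thiol reductase that prepares antigens, at 1.16, H2-Aa at 0.60 and Cd74 at 0.42. B cell receptor signalling was mixed, with 8 of 22 higher, among them the complement receptor Cr2 at 1.04 and Cd22 at 0.56, and 6 lower, among them Syk at -0.54 and Dok3 at -0.62. Of 30 Myc target and ribosome biogenesis genes 12 were higher, among them Nop16 at 0.60 and Gar1 at 0.50, and 1, Shmt2, lower. Nop16 and Gar1 lost their calls without mouse 2 and with 39 cells per sum, and Nop16 also without mouse 3.

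Among genes lower in LZ G2M, Rgcc, a regulator of the cell cycle, stood at 37.5, 50.4 and 53.9 CPM against 175, 198 and 204 CPM in DZ G2M, a log2 fold change of -1.99 ± 0.12 (edgeR, adjusted p = 2.87e-10). Pafah1b3 (-1.83), Otub2 (-1.72), Arl5c (-1.62), Myl4 (-1.27), the ribonucleotide reductase subunit Rrm2b (-1.24), the chromatin remodeller Smarca4 (-1.20), Smco4 (-1.19), the germinal center signalling gene Gcsam (-1.19) and Hmces, which shields abasic sites in DNA (-1.16), followed. None of these 10 lost its call under the alternatives. Of 25 dark zone genes 10 were lower and 1, Hist1h1b, higher. Cxcr4, the receptor that draws cells into the dark zone, stood at 45.1, 44.1 and 37.5 CPM in LZ G2M and 76.5, 91.6 and 98.1 CPM in DZ G2M (-1.11 ± 0.14). With 39 cells per sum Cxcr4 was at -0.73 and did not pass (edgeR, adjusted p = 0.197). Foxp1 was lower by 0.72, a call also lost with 39 cells per sum. Of 16 hypermutation and repair genes 3 were lower, among them Polh at -0.87 and Xrcc1 at -0.69, and none was higher, with a median of -0.04 against -0.03 over all genes.

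**Figure D4:**
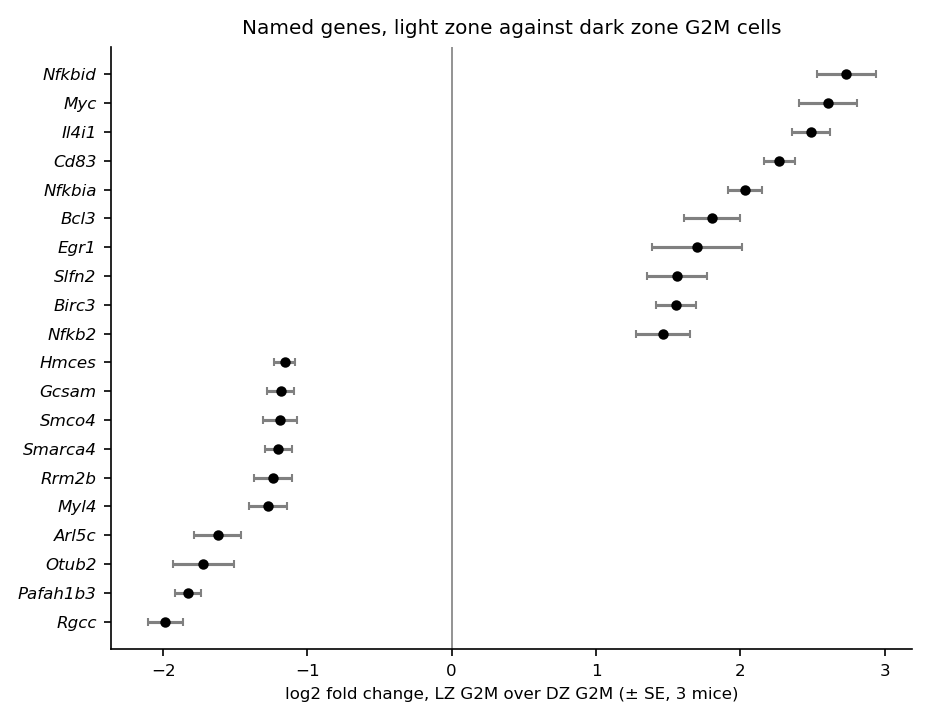
Log2 fold change (point) with SE (line) of the 10 genes with the largest difference in each direction, LZ G2M over DZ G2M, among called genes that reached a mean of 50 CPM in either group and moved alike in 3 of 3 mice. NF-kB feedback genes, Myc, Il4i1 and Cd83 lie right of 0, from 1.46 to 2.74, and of these 20 Rgcc lies farthest left, at -1.99.

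Genes of mitotic entry did not all differ alike between the zones. Cdk1 (-0.13 ± 0.07, edgeR, adjusted p = 0.337), Mki67 (-0.12 ± 0.07, adjusted p = 0.339) and Ccna2 (-0.04 ± 0.07, adjusted p = 0.821) did not pass. Cdc20 stood at 213, 215 and 227 CPM in LZ G2M and at 385, 376 and 397 CPM in DZ G2M, with no overlap and a log2 fold change of -0.81 ± 0.09 (edgeR, adjusted p = 1.51e-06). Ccnb2 stood at 288, 348 and 329 CPM against 506, 479 and 491 CPM (-0.60 ± 0.07). The phosphatase Cdkn3 was lower by 0.91, the kinase Nek2 by 0.86, the phosphatase Cdc25b, which activates Cdk1, by 0.75, Cenpa, the centromeric histone, by 0.66, Aurka by 0.57 and Ccnb1 by 0.49. By list, 17 of 52 G2/M genes and 6 of 28 genes of mitotic entry and anaphase were lower and none higher, while 7 of 42 S phase genes, among them Atad2 (0.56) and Tyms (0.37), were higher and none lower. The medians were -0.19 for the G2/M list and 0.01 for mitotic entry and anaphase, against -0.03 over all genes. With 39 cells per sum, Cdc20, Ccnb2, Cenpa, Aurka, Ccnb1, Atad2 and Tyms no longer passed. Atad2 was also lost without mouse 2, and Tyms without mouse 1, without mouse 2, without the mouse block and in cluster 1 alone.

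The authors' cluster 3 also differed in share between the zones, and only some of these genes were higher in it. It held 12.8%, 16.7% and 11.1% of LZ G2M cells in the 3 mice and 38.4%, 39.8% and 40.5% of DZ G2M cells. Within LZ G2M, the 27 cells of cluster 3 had 808 CPM of Ccnb2, 504.1 CPM of Cdc20 and 281 CPM of Ccnb1, and the 168 cells of cluster 1 had 287, 194 and 166 CPM. Cdk1 ran the other way, at 51.6 CPM in cluster 3 and 342 CPM in cluster 1, as did the S phase list, at 1993 and 5430 CPM. Of the genes named above as lower in LZ G2M, Cenpa was also higher in cluster 3 (619 and 244 CPM). Aurka (68.7 and 103 CPM) and Cdc25b (115 and 175.5 CPM) were lower in cluster 3. These are pooled values of clusters made from the same counts and carry no test. With G2M cells of cluster 1 alone, a comparison added after seeing the data, the log2 fold change between zones was -0.53 for Cdc20 (edgeR, adjusted p = 0.00115), -0.42 for Ccnb2 (adjusted p = 0.0015), -0.75 for Aurka, -0.79 for Cdkn3 and -0.51 for Ccnb1. Hist1h1b, higher by 0.24 in all cells, was -0.06 there and missed the threshold (edgeR, adjusted p = 0.591).

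The fourth comparison asked whether the step from G1 to G2M differed between the zones, as the difference of the G2M against G1 change in LZ minus that in DZ. Few genes differed, 29 higher and 116 lower, 1.59% in all, 0.319% higher and 1.27% lower. With DESeq2's size factors in place of TMM the split was 47 higher and 95 lower. None of 36 light zone genes passed in either direction. The MHC class II list summed to 54240 CPM in LZ G1 and 37730 CPM in LZ G2M, and to 35320 and 27260 CPM in DZ. Of its 13 members 2 were lower and none higher in this difference, with 12 of 13 below 0. The 2, Cd74 and H2-Eb1, lost their calls under 7 and 9 of the 15 alternatives. The B cell receptor list went from 10840 to 7886 CPM in LZ and from 10510 to 7599 CPM in DZ, with 1 of 22 lower and none higher. Cd83 stood at 143 ± 9.59 CPM in DZ G1 and 77.8 ± 5.54 CPM in DZ G2M, and the difference between the zones was 0.23 ± 0.14 (edgeR, adjusted p = 0.562). For Nfkbia it was 0.37 ± 0.16 (edgeR, adjusted p = 0.371). For Myc, which stood at 13.8 ± 0.773 CPM in DZ G1 and 12.2 ± 4.37 CPM in DZ G2M, it was 1.09 ± 0.28, just short of the threshold (edgeR, adjusted p = 0.0546).

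Of 52 G2/M genes 6 had a larger and 2 a smaller step in LZ, with a median of -0.11 and 35 of 52 below 0, and of 28 spindle genes 2 had a larger step and none a smaller one. Ccnb2, Hmgn2 and Stmn1 had a larger step in LZ beside a lower G1 level there. Ccnb2 stood at 40.7, 38.1 and 39.6 CPM in LZ G1 and at 121, 135 and 120 CPM in DZ G1, and the difference of the steps was 1.07 ± 0.12 (edgeR, adjusted p = 2.33e-05). Hmgn2, a nucleosome-binding protein, reached 2115 ± 36.3 CPM in LZ G2M and 2158 ± 60.5 CPM in DZ G2M, from 542 ± 31.0 CPM in LZ G1 and 1040 ± 21.1 CPM in DZ G1 (0.91 ± 0.06). Stmn1, a regulator of microtubules, reached 1854 ± 98.8 and 1858 ± 131 CPM from 211 ± 7.22 and 398 ± 19.4 CPM (0.92 ± 0.08), and Cks1b, a Cdk partner, had 0.90 ± 0.12, a call lost with 39 cells per sum. Cluster 3 held 174 of the 1074 DZ G1 cells and 8 of the 1168 LZ G1 cells, and its part in these values was not tested. In the other direction, Malat1, a nuclear noncoding RNA, fell from 3779 ± 127 to 2433 ± 227 CPM in LZ and stood at 2494 ± 151 and 2447 ± 90.1 CPM in DZ (-0.60 ± 0.07). Irf7, an interferon regulator, fell from 66.0 ± 15.9 to 31.6 ± 4.26 CPM in LZ and stood at 55.3 ± 16.1 and 58.4 ± 13.7 CPM in DZ (-1.07 ± 0.23), a call lost without mouse 1, without mouse 2, without the mouse block, with 39 cells per sum and in cluster 1 alone.

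**Figure D5:**
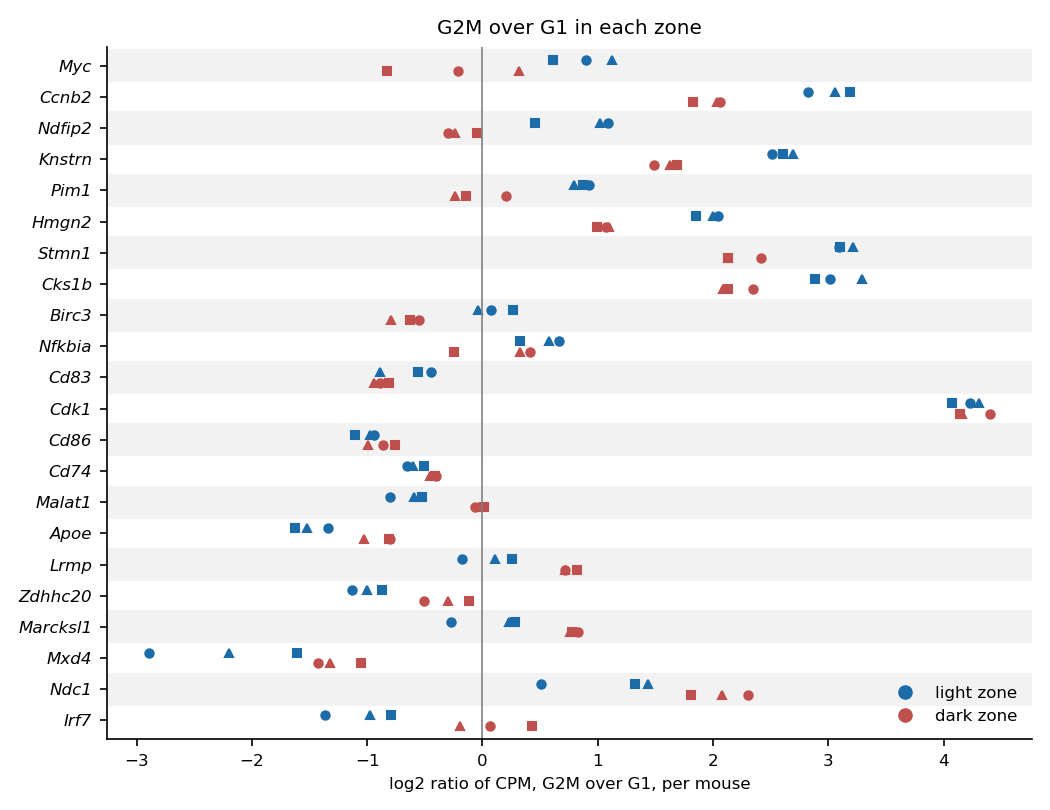
Log2 ratio of CPM in G2M over G1 for each mouse (circle, mouse 1; square, mouse 2; triangle, mouse 3), in LZ (blue) and DZ (red), for the 16 genes named in this comparison and Cd83, Cd86, Cd74, Myc, Nfkbia and Cdk1. Ccnb2, Hmgn2 and Stmn1 lie farther right in LZ, Malat1 and Irf7 farther left, and Cdk1 overlaps.

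Transcripts of other cell types were scarce. With 2 or more such UMIs there were 4 of the 198 cells. The T cell list summed to 1.26 to 2.50 CPM over the 3 mice in LZ G2M and 0 to 3.80 CPM in DZ G2M, with Cd3d, Cd3e and Cd3g at 0, and the NK cell list to at most 1.26 CPM. The stromal list was at 0. The myeloid list was at 2.50, 1.26 and 32.8 CPM in LZ G2M, high in mouse 3, and at 0.475 to 2.36 CPM in DZ G2M, with Adgre1, C1qa, C1qc and Mrc1 at 0. Without the 4 cells and their like in other groups the 4 comparisons called 2555, 1188, 891 and 147 genes. By its most abundant heavy chain transcript, 46.2% ± 12.8 of LZ G2M cells (SD, n = 3) were IgM and 30.9% ± 15.6 IgG1, against 56.6% ± 7.23 and 21.3% ± 7.04 of DZ G2M cells. These ranges overlap, and mouse 1 had the highest IgG1 share in both groups.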

How the data were processed

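The authors deposited raw UMI counts of 13886 genes in 6000 cells, made with Cell Ranger and Seurat on builds named GRCm38 and mm10, per the submitters' processing notes, which give no versions. The zone score and the cell labels (zone, phase, cluster, mouse) are the authors' own, as deposited, and how they were computed is not given in the sources used here. One matrix holds the gene counts of all cells, so cells were assigned to the 3 mice by the deposited mouse label. Of the 12 libraries, those labelled mRNA are the gene expression libraries, and the others are labelled HTO or BCR. Each kind comes from fractions labelled PC and non-PC. Which fraction a cell came from cannot be told from its labels and was not used. Phase, zone and clusters come from the same counts as the tests.

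Counts were summed per mouse and group (18 sums) and fitted with edgeR 4.0.16 in R 4.3.3 (TMM, filterByExpr, quasi-likelihood test, Benjamini-Hochberg over 9105 genes, threshold 0.05), with mouse as a block. The block is the animal itself. Sums of the same mouse deviated together (median r 0.293, lowest 0.0966, over 45 pairs). Deviations were taken from the mean of the 3 mice in each group. The negative value between different mice (median r -0.137 over 90 pairs) therefore follows from the same-mouse value and adds no support. DESeq2 1.42.0 was an alternative. On simulated counts of 8936 genes the fit recovered 76.0%, 75.5%, 75.0% and 55.0% of 200 changed genes in the 4 comparisons, in the order of the report. Of the genes called, 5.00%, 3.82%, 2.60% and 3.51% had no planted change. The planted changes had a single size, larger than many differences described here, and the simulation held no mouse effect. Recovery of smaller changes was not tested. No doublet caller was run, and the alternative without the 5 percent of cells with most UMIs stands in for one. All 198 cells are in 1 of the 2 barcode series, and no barcode was shared among the 6000 cells. Whether the barcode series match the PC and non-PC fractions was not tested.

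Named genes were fixed genes plus those with the largest change past the threshold at a mean of at least 50 CPM, changed the same way in all 3 mice (10 or 8 in each direction, without immunoglobulin and predicted genes and, within LZ, without the S phase and G2/M lists), and up to 4 members of each list with the largest changes. Other list members named in the report, among them Rela, Xrcc1, Tyms, Bcl10 and Cd22, were picked with their values in view. The members, lists and tests were chosen with earlier results of these data known. Promoter sequences are RefSeq's, matched by symbol, and the promoter set used here held no entry for Cd83, Myc or Ccna2. Values of a few list members are not reported here.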

Additional observations from a re-analysis of the deposited data

Results flagged for a closer look

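For 16 named genes the G2M against G1 change differed between the zones by a direct test of that difference (edgeR's quasi-likelihood test, Benjamini-Hochberg). Values are the LZ log2 fold change minus that in DZ. It was above 0 for Ccnb2 (1.07), Ndfip2 (1.01), Knstrn (0.99), Pim1 (0.93), Stmn1 (0.92), Hmgn2 (0.91), Cks1b (0.90) and Birc3 (0.78). It was below 0 for Irf7 (-1.07), Mxd4 (-0.87), Ndc1 (-0.80), Zdhhc20 (-0.69), Marcksl1 (-0.67), Lrmp (-0.65), Apoe (-0.62) and Malat1 (-0.60). The kinase gene Pim1 stood at 80.6 CPM in LZ G1, 147 CPM in LZ G2M, 164 CPM in DZ G1 and 157 CPM in DZ G2M. Of the 16, Ccnb2, Pim1, Stmn1, Hmgn2 and Malat1 kept their call under every alternative run.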

How the results depend on the processing

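The 39 to 81 LZ G2M cells per mouse set the limits. With 39 cells per sum (5526 genes tested) the 4 comparisons called 937, 323, 191 and 35 genes, against 2565, 1195, 901 and 145. Leaving out 1 mouse gave 1731 to 2209, 640 to 929, 441 to 655 and 47 to 131. The lowest of the last 3 came without mouse 2, and without mouse 3 LZ S gave 720 and DZ G2M 572. With only the groups compared, LZ S gave 760 and DZ G2M 508. The phase by zone difference called 221 genes with no filter and 248 with clusters 4, 5 and 7 kept. Without cells near the zone boundary, an alternative chosen after seeing the data like that of cluster 1 alone, the comparison with LZ S called 673. Without the replicate block the counts were 2528, 1139, 807 and 106. The share difference was -22.523 points with phase called at 2000 UMIs. Sign changes are listed for named values called in the main fit. With equal cell numbers the sign turned for Myc (-0.305) against LZ S and Cdca3 (-0.471) in the phase by zone difference. It also turned for Klf2 (-0.045) against LZ S without the highest-UMI cells, and Hist1h1b (-0.064) against DZ G2M in cluster 1 alone. The cause was not tested. Some values not called in the main fit, such as Cd83 against LZ S, also changed sign. Of 316 named values, 278 were called, and equal cell numbers took 109 below the threshold.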
